A study of Mus musculus with 12 samples.

Results

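The 41 genes described here encode ligands, receptors, SMADs, regulators and target genes of the transforming growth factor beta (TGF-beta) superfamily. They were taken by gene name from a raw RNA-seq count table of 57186 genes, and every one of the 41 had counts and was tested. The table came from 3 DDKC cell lines, each isolated from pancreatic tumor tissue of Dkk3-/- mice that also carry Ptf1a Cre/+. The lines carry numbers in the labels and are called A, B and C here, from the lowest number to the highest. Ptf1a Cre is active in the pancreatic epithelium, whereas the Dkk3 knockout is present in every cell of the animal. All cultures of both groups were therefore Dkk3-null, and they were grown in DMEM with fetal bovine serum, penicillin and streptomycin. The untreated group held the 3 lines without added protein, and the rDKK3 group held the same 3 lines with commercial recombinant soluble DKK3 protein. The comparison asked how tumor cells that lack DKK3 respond to DKK3 from outside. The 12 libraries analysed here include no line with intact Dkk3, so all values describe Dkk3-null cells. The dose and duration of rDKK3 for the RNA samples were not given in the sources used here.

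Ligands of this superfamily bind pairs of type I and type II receptor kinases, which phosphorylate SMAD proteins that enter the nucleus with SMAD4. TGF-beta and activin signals pass mainly through SMAD2 and SMAD3, and BMP signals through SMAD1 and SMAD5, with the ID genes as classical BMP targets. TGF-beta restrains the growth of normal pancreatic epithelium and promotes a mesenchymal state in many advanced carcinomas, and SMAD4 is one of the genes most often lost in pancreatic cancer.

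Each line and condition was sequenced in 2 libraries, 12 in all. Total counts were between 7520741 and 24541083 per untreated library and between 3822987 and 11567095 per rDKK3 library, and in each line both rDKK3 libraries were shallower than the untreated library of the same number series. The libraries of a pair differed beyond sampling noise as deposited, with a deviance of 6.42 per degree of freedom over 12979 genes, and by less than sampling noise, with 0.769, once a gene-wise shift between the library number series was fitted. They were therefore summed to 1 sample, which left 6 samples, and n below is 3 lines per group. Nothing in the labels says that these cultures were repeated, so p-values of the rDKK3 test on the sums measure the spread between the 3 lines. The line test takes the untreated and the treated culture of a line as its repeats. It sets the lines against the spread left after line and treatment. Dkk3 itself, on chr7:111715224-111758264 of GRCm39, had 0 counts in 11 libraries and 1 count in 1 rDKK3 library of line A. Epithelial markers were abundant, with a summed level of 5336 to 9800 CPM (counts scaled by library size to a common total) untreated and 4250 to 8099 CPM with rDKK3, although Epcam did not exceed 2.05 CPM in any sample. Of the 8 epithelial markers, 4 were lower with rDKK3 in all 3 lines (the keratins Krt7, Krt8, Krt18 and Krt19) and 2 were higher in all 3 lines (Sox9 and Muc1). At an unadjusted p under 0.05 in edgeR's test, 3 were lower (Krt7, Krt8 and Krt19) and 1 was higher (Sox9), 0 passed after adjustment, and the part of this in the results below was not tested. The 5 T cell markers summed to at most 0.0430 CPM and the 9 fibroblast markers to at most 13.2 CPM, 4 of 9 macrophage and leukocyte markers (Adgre1, C1qa, C1qb and Tyrobp) were at 0 in every sample, and so were 5 of 8 acinar markers including Ptf1a. The macrophage and leukocyte list summed to 151 to 395 CPM untreated and 144 to 1014 CPM with rDKK3, and the acinar list to at most 11.9 CPM. Cd14, a leukocyte marker that other cells can express, reached 1003 CPM in line A with rDKK3. Of 5 endothelial markers, 4 stayed below 1 CPM, and with the other, Kdr, the list summed to at most 17.6 CPM.

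No member passed the test for rDKK3 on the summed counts. In edgeR's quasi-likelihood test with line and treatment in the model, 0 of 41 members had a Benjamini-Hochberg adjusted p under 0.05, beside 0.00657% of all 15214 genes tested, which is the single gene Lcn2. An unadjusted p under 0.05 was reached by 5 members, 2 higher and 3 lower, which is 12.2% beside 8.29% of all genes. DESeq2 on the same sums likewise called 0 members, beside 96 of all 15214 genes. It had 6 members at an unadjusted p under 0.05, 2 higher and 4 lower, beside 412 higher and 648 lower of all genes. With 12 libraries as separate replicates, edgeR called 12 members. Of these, 5 were higher, beside 6.93% of all genes, and 7 were lower, beside 9.72%. That fit counts 12 libraries as independent, so its p-values do not measure the spread between the 3 lines. This holds even where the 2 libraries of a line and condition are separate cultures. Where they repeat 1 culture, the fit also makes many false calls. The sample names do not settle this. With a gene-wise shift between the library number series fitted, library pairs differed by less than sampling noise, with a deviance of 0.769 per degree of freedom. Treated against untreated libraries of a line had 14.9. Which case holds was not tested, so the calls of this fit are given here as those of the 12-library fit only. Over all alternatives run, the adjusted p of these 12 members ranged from 0.00129 to 1.00. The median log2 fold change was 0.05 over the members and -0.01 over all genes tested, and 24 members had a positive and 17 a negative value. In bulk RNA, fewer cells with a transcript and less of it per cell cannot be told apart.

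The 5 members with an unadjusted p under 0.05 were Ltbp2 and Gdf15, which were higher, and Ltbp4, Id2 and Id4, which were lower. Their proximal promoters are shown so that letters known to bind SMADs can be read beside the members with the smallest p-values. Each line gives the 250 bases before the RefSeq transcript start, 5' to 3' on the strand of the gene.
Ltbp2: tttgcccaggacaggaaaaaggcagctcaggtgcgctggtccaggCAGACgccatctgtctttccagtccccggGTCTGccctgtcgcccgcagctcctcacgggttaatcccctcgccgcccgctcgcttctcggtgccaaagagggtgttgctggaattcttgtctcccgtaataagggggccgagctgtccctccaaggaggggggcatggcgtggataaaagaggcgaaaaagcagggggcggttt
Gdf15: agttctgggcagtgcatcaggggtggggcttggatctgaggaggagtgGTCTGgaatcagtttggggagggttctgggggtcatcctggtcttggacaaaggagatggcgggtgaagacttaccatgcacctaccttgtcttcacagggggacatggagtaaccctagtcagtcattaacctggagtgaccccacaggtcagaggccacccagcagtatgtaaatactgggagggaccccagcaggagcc
Ltbp4: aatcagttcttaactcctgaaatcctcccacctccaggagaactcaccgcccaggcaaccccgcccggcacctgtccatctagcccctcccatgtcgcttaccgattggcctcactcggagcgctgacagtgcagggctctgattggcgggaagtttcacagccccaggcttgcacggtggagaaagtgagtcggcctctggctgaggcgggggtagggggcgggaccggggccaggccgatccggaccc
Id2: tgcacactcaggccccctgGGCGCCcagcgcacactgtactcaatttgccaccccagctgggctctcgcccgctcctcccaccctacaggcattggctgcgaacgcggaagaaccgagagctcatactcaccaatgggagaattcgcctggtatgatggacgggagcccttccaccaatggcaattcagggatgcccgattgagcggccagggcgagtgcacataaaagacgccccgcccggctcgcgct
Id4: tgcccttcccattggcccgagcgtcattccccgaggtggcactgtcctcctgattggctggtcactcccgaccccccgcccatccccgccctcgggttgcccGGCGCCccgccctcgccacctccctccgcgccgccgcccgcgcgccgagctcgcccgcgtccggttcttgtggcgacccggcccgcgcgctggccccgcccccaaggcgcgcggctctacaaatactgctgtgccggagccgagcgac
Capitals mark the letters CAGAC, known as the SMAD-binding element and printed as GTCTG where it lies on the other strand, and GGCGCC, a GC-rich element bound by BMP-responsive SMADs. Both strands were searched for these and for TTCNNNGAA, the general STAT letters, and no matches overlapped. On GRCm39, each sequence matched exactly once. Ltbp2 lies at chr12:84923266-84923515 on the minus strand and held 2 CAGAC matches, at -205 and -176 from the transcript start. The Gdf15 window, chr8:71085107-71085356 on the minus strand, held 1 CAGAC match at -202. Both genes whose level was higher thus carried CAGAC, a match that 42.2% of all 32851 promoter windows of this length hold. The Id2 window, chr12:25146092-25146341 on the minus strand, held 1 GGCGCC match at -231, and its transcript start lies 1048 bases inside the gene as the count table bounds it. For Id4, the window at chr13:48414342-48414591 on the plus strand held 1 GGCGCC match at -148. GGCGCC occurs in 9.59% of all windows. The Ltbp4 window, chr7:27037038-27037287 on the minus strand, held none of the searched letters, and TTCNNNGAA, found in 7.02% of all windows, was in none of the 5.

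**Figure D1:**
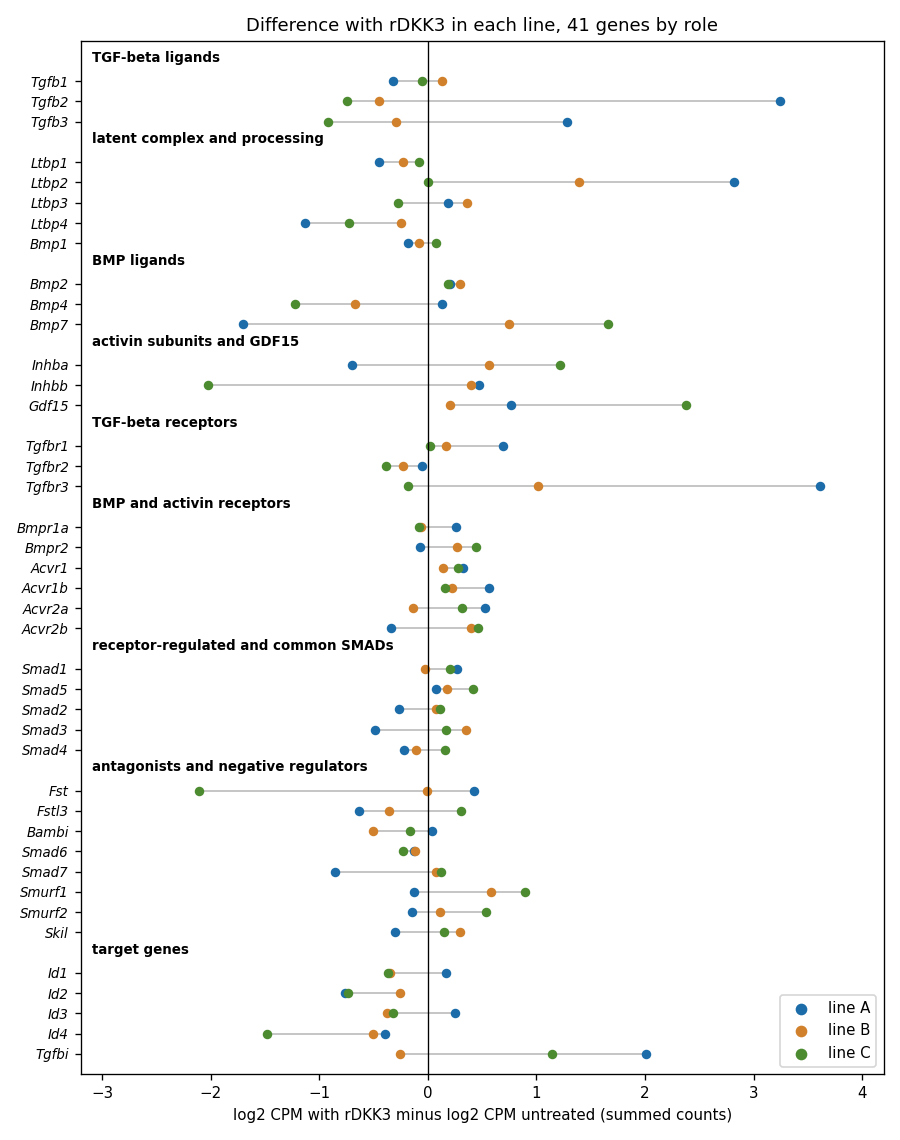
Difference in log2 CPM between rDKK3 and untreated cells in each line, from summed counts, for the 41 genes ordered by role. Each point is 1 line and the grey bar spans the 3 lines. All 3 points lie on one side of 0 for 12 genes, and the widest bars belong to Tgfb2, Tgfbr3, Bmp7 and Ltbp2. The line C point of Inhbb rests on 10 and 0 counts and on the prior count of 2.

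Across the 3 lines, 12 members kept the same direction with rDKK3, 6 higher and 6 lower, which is 29.3% beside 32.8% of all genes. For the other 29 members the sign differed between lines. A log2 difference of at least 1 in either direction was seen for 7 members in line A, 5 higher and 2 lower, beside 10.2% of all genes. Line B had 2 such members, both higher, beside 3.98%. Line C had 8, 4 higher and 4 lower, beside 10.1%, and 1 of the lower is Inhbb, which had 10 counts untreated and 0 with rDKK3 there. The highest minus the lowest of a member's 3 log2 differences had a median of 0.66, and 0.57 over all genes tested. In a fit of all 12 libraries with an interaction of line and treatment, 37 of 41 members had an adjusted p under 0.05, beside 61.3% of all genes. On simulated repeats of 1 culture without any line-dependent response, that test called about as large a share of all genes, so nothing is read from its calls, and the differences between lines in the response to rDKK3 given below are descriptions with no test. The sign of a line's difference was the same in both library number series for 37, 38 and 39 of the 41 members in lines A, B and C. The share among all genes was not computed. Libraries that repeat 1 culture would agree apart from counting error, so this count does not show that a response repeats between cultures.

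TGF-beta is stored outside the cell in a latent complex, in which a latent TGF-beta binding protein (LTBP) ties the inactive ligand to the matrix. Ltbp2, which binds fibrillin but not latent TGF-beta itself, lies at chr12:84829986-84923306. In line A its level was 58.5 and 60.3 CPM in the untreated libraries and 409 and 425 CPM with rDKK3. Line B had 15.1 and 13.3 CPM untreated and 33.7 and 37.7 CPM with rDKK3. Line C had 60.9 and 59.3 CPM untreated and 59.1 and 59.9 CPM with rDKK3. The gene was thus higher in the treated libraries of lines A and B and nearly equal in line C, and the ranges of the groups overlapped. Its log2 fold change was 1.41 ± 0.55 (SE, n = 3 lines), with an unadjusted p of 0.0476 and an adjusted p of 0.60 in edgeR's test across all genes. Without line A the log2 fold change was 0.68.

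Ltbp4, which anchors latent TGF-beta and supports elastic fibers, was lower in all 3 lines (chr7:27004561-27037117). Line A had 659 and 644 CPM untreated and 286 and 298 CPM with rDKK3. In line C it was 325 and 331 CPM untreated and 193 and 201 CPM with rDKK3. Line B held little of it, 36.6 and 35.2 CPM untreated and 29.2 and 30.1 CPM with rDKK3. The treated libraries lay below the untreated ones within every line, while between lines the groups overlapped because line B was far lower than the others. The log2 fold change was -0.71 ± 0.19 (SE, n = 3 lines), with an unadjusted p of 0.0122 and an adjusted p of 0.60 in edgeR's test. The 12-library fit gave an adjusted p of 0.00219.

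Per kilobase of exon the LTBP family had the same total in line A with and without rDKK3 but not the same makeup. The 4 genes summed to 193.7 CPM per kb both untreated and with rDKK3, but Ltbp2 made up 3.73% of that sum untreated and 26.4% with rDKK3, and Ltbp4 44.2% and 20.1%. Lines B and C were led by Ltbp3, another carrier of latent TGF-beta, with 79.1% and 58.1% of the family in untreated cells and 83.8% and 60.3% with rDKK3. The mean level of Ltbp3 over the 6 samples was 106 CPM per kb. Ltbp1, the classical partner of latent TGF-beta, hardly differed between lines, at 297, 284 and 285 CPM in untreated A, B and C. With rDKK3 it was at 217, 241 and 269 CPM, so no treated sample reached an untreated one, but the log2 fold change of -0.26 ± 0.13 (SE, n = 3) had an unadjusted p of 0.0923 in edgeR's test. The 12-library fit called it, with an adjusted p of 0.0179. Bmp1, a protease that releases LTBP1 from the matrix and also processes procollagen, had log2 differences between -0.18 and 0.08.

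**Figure D2:**
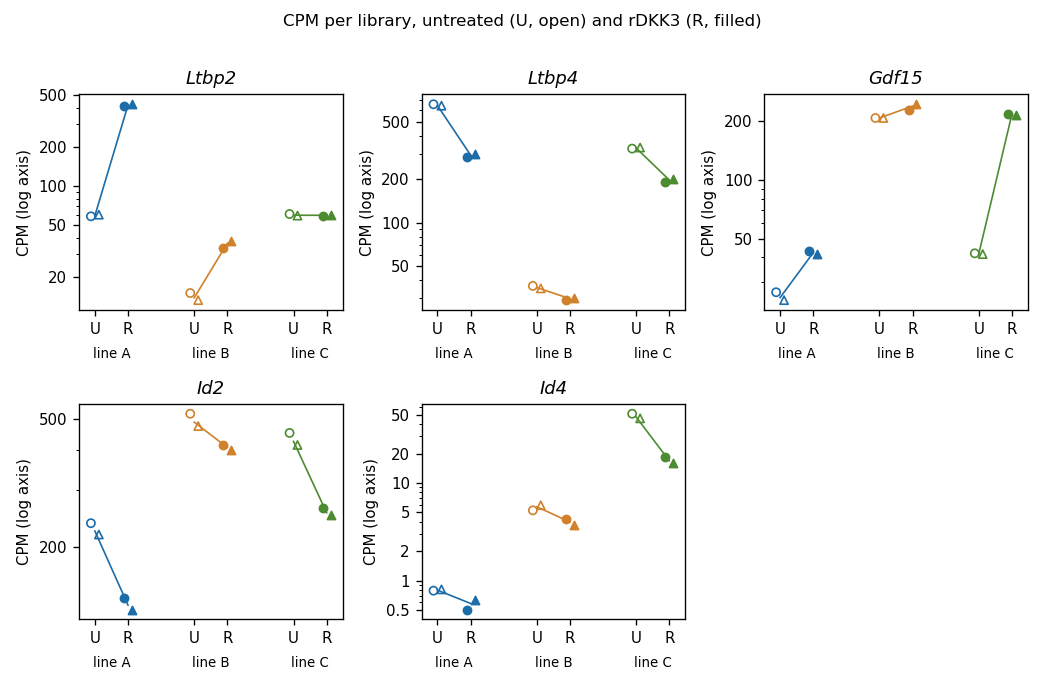
CPM on log axes in each of the 12 libraries for the 5 members with an unadjusted p under 0.05, open symbols untreated (U) and filled symbols rDKK3 (R), circles the lower and triangles the higher library numbers, with lines joining the summed samples. Ltbp4, Id2 and Id4 are lower with rDKK3 in all 3 lines, Ltbp2 is level in line C, and Gdf15 moves most in line C.

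Of the TGF-beta ligands, Tgfb1 was the main isoform in 5 of the 6 samples. It was at 128, 222 and 552 CPM in untreated lines A, B and C and at 102, 243 and 531 CPM with rDKK3. The order of the lines was the same in both groups, and the difference between lines reached an adjusted p of 0.00421 in edgeR's line test, whereas the log2 fold change with rDKK3 was -0.08 ± 0.13 (SE, n = 3). Tgfb2 and Tgfb3 were singled out after their values were seen. In line A, Tgfb2 was at 3.43 and 3.21 CPM in the untreated libraries and at 31.6 and 31.7 CPM with rDKK3, a log2 difference of 3.24. In lines B and C it did not exceed 1.82 CPM in any library, with log2 differences of -0.46 and -0.75 that rest on 21 and 7 counts with rDKK3. The line B difference was 0.0145 in the lower and -0.93 in the higher library numbers. Tgfb3 was at 79.9 CPM in untreated line A and 194 CPM with rDKK3, whereas line B had 48.3 and 39.4 CPM and line C 109 and 57.4 CPM. It was thus higher with rDKK3 in line A and lower in lines B and C, and its log2 fold change over the lines was 0.01 ± 0.43 (SE, n = 3). Per kb, Tgfb1 made up 61.4% of the 3 ligands in untreated line A and 32.2% with rDKK3, where Tgfb3 led with 59.6% against 37.3% before. In lines B and C the share of Tgfb1 was 82.1% and 83.7% untreated and 86.1% and 90.4% with rDKK3.

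The leading BMP ligand per kb differed between the lines. BMP2, BMP4 and BMP7 are secreted morphogens that act mainly through SMAD1 and SMAD5. Bmp2 was at 1.93, 20.4 and 209.6 CPM in untreated lines A, B and C and at 2.24, 25.1 and 237.8 CPM with rDKK3, a range of 6.68 log2 units between line means with an adjusted p of 5.74e-04 in edgeR's test of line differences. Its log2 differences with rDKK3 were 0.20, 0.30 and 0.18 and its fitted log2 fold change 0.23 ± 0.11 (SE, n = 3), with an unadjusted p of 0.0898 in edgeR's test. The line A value rests on 58 counts untreated and 23 with rDKK3, and its sign differed between the library number series, with 1.07 in the lower and -0.30 in the higher numbers. Bmp7 was at 5.30, 96.0 and 25.9 CPM in untreated lines A, B and C, and its difference between lines had an adjusted p of 0.0197. With rDKK3 it was at 1.56, 160.9 and 82.3 CPM, lower in line A and higher in lines B and C. Bmp4 was alike in the untreated lines, at 46.9, 55.0 and 57.7 CPM. With rDKK3 the lines had 51.5, 34.4 and 24.6 CPM, lower in B and C only. Its log2 fold change of -0.59 ± 0.27 (SE, n = 3) had an unadjusted p of 0.0779 in edgeR's test, and the 12-library fit called it with an adjusted p of 0.0346. It was -0.94 without line A and -0.27 without line C.

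Per kb, the BMP ligand pool of untreated line A consisted of Bmp4 to 84.7%, that of line B of Bmp7 to 59.3%, and that of line C of Bmp2 to 72.8%. The pool itself was 10.6, 36.6 and 62.1 CPM per kb in lines A, B and C. With rDKK3 the leading ligand stayed the same, at 92.1%, 75.3% and 68.8%. The share of Bmp4 in line B was 28.7% untreated and 13.6% with rDKK3, and 17.7% and 6.28% in C. In line C the share of Bmp7 was 9.45% untreated and 24.9% with rDKK3.

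**Figure D3:**
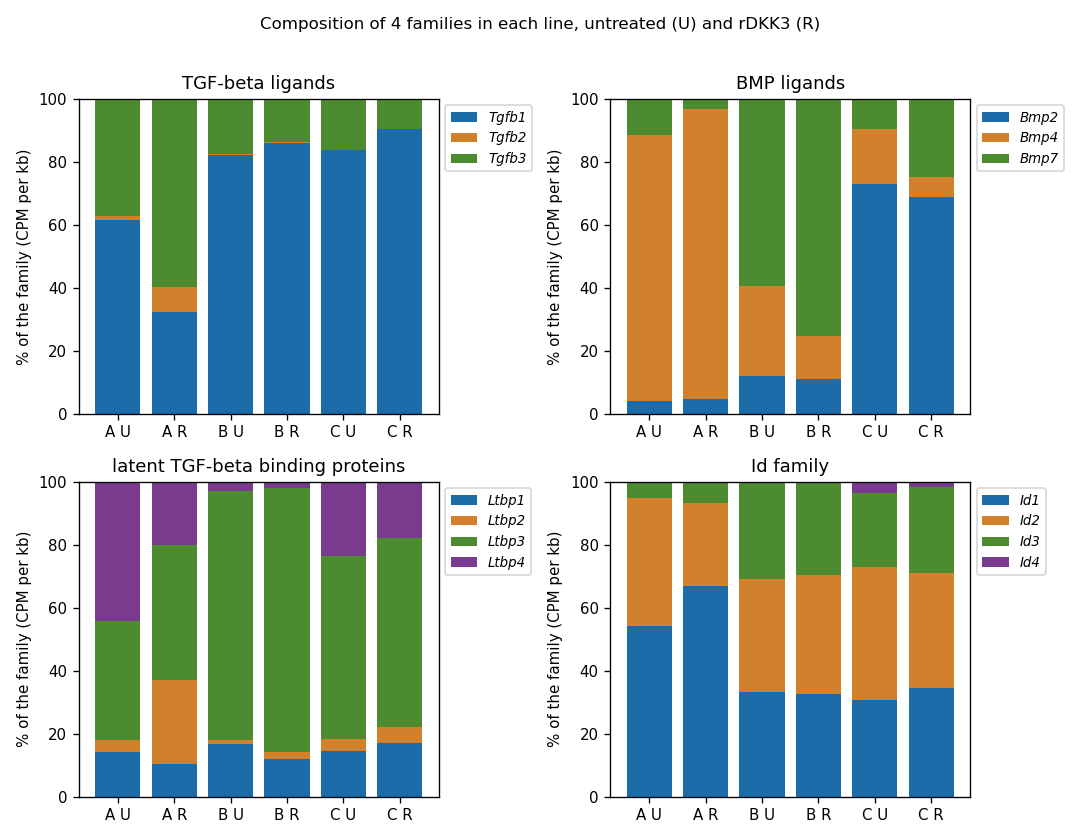
Share of each gene in the summed level (CPM per kb of exon) of 4 families, for each line untreated (U) and with rDKK3 (R), as stacked bars from 0 to 100%. The leading BMP ligand is Bmp4 for A, Bmp7 for B and Bmp2 for C, and the TGF-beta ligands and LTBPs differ most between U and R in line A.

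Inhba and Inhbb encode the beta subunits of activin A and activin B, and Gdf15 encodes a distant family member that is induced by cell stress and acts through the receptor GFRAL. Gdf15 (chr8:71082043-71085106) was at 42.0 and 41.6 CPM in the untreated libraries of line C and at 217 and 216 CPM with rDKK3. In line A it was at 26.5 and 24.2 CPM untreated and 43.0 and 41.9 CPM with rDKK3. Line B held the highest untreated level, 207.6 CPM in both libraries, and 226.9 and 244.1 CPM with rDKK3. The treated libraries were higher within every line, and the groups overlapped because untreated line B lay above treated line A. The log2 fold change was 1.10 ± 0.43 (SE, n = 3 lines), with an unadjusted p of 0.0491 and an adjusted p of 0.60 in edgeR's test. Without line C it was 0.47.

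Inhba was chosen after its values were seen. It was at 73.7, 40.3 and 413 CPM in untreated lines A, B and C and at 45.2, 59.7 and 962 CPM with rDKK3, lower in line A and higher in lines B and C. The level in line C was above that of the other lines in both groups, and the difference between lines reached an adjusted p of 0.00871 in edgeR's line test. Inhbb was at 26.8 and 18.3 CPM in untreated lines A and B and at 37.3 and 24.2 CPM with rDKK3. Line C held only 10 counts of it untreated and 0 counts with rDKK3, and 0 of 12214580 counts allows a level of up to 0.247 CPM by the floor of 3 counts, which covers counting error only. No fold is given for that line, since its log2 difference would depend on the prior count. Activin transcripts of line C were thus those of Inhba, to 99.9% untreated, whereas in lines A and B Inhba made up 62.4% and 57.1% untreated and 42.3% and 59.9% with rDKK3.

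TGFBR1 and TGFBR2 are the signaling receptors for TGF-beta, and TGFBR3 (betaglycan) is a co-receptor that presents TGF-beta2 in particular. Tgfbr2 was at 257, 169 and 184 CPM in untreated lines A, B and C and at 247, 145 and 141 CPM with rDKK3. All 3 differences were negative, and the log2 fold change of -0.22 ± 0.12 (SE, n = 3) had an unadjusted p of 0.116 in edgeR's test and an adjusted p of 0.0198 in the 12-library fit. Tgfbr1 was at 172 CPM in untreated line A, where it reached 277 CPM with rDKK3, and between 64.0 and 85.8 CPM elsewhere. Tgfbr3 separated the lines most, at 0.433 and 0.515 CPM in untreated A and B against 40.2 CPM in C. With rDKK3 the lines had 6.34, 1.13 and 35.4 CPM. The line A value rests on 13 counts untreated and 65 with rDKK3, and its log2 difference was 3.61. The fitted log2 fold change over the lines was 1.30 ± 0.80 (SE, n = 3), with an unadjusted p of 0.160 in edgeR's test. It was 0.16 without line A, 2.63 without line C and 0.86 in the 12-library fit.

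The range of line means had a median of 0.67 log2 units over the 6 BMP and activin receptors, beside 1.24 over the 41 members and 0.74 over all genes tested, and 2 of the 6, Acvr1 and Bmpr1a, were called for a line difference. Their fitted log2 fold changes with rDKK3 were all positive, between 0.04 and 0.31, and none had an unadjusted p under 0.05 in edgeR's summed fit. Acvr1, which encodes the type I receptor ALK2, was at 58.7, 70.7 and 112.6 CPM in untreated A, B and C and at 73.3, 78.1 and 136.3 CPM with rDKK3. It was higher in all 3 lines, with a log2 fold change of 0.25 ± 0.10 (SE, n = 3), an unadjusted p of 0.0610 in edgeR's test and an adjusted p of 0.00742 in the 12-library fit. Acvr1b, the activin type I receptor ALK4, was at 56.8, 84.5 and 55.6 CPM untreated and at 83.6, 98.8 and 61.9 CPM with rDKK3, a log2 fold change of 0.31 ± 0.13 (SE, n = 3) with an unadjusted p of 0.0539 in edgeR's test and an adjusted p of 0.00940 in the 12-library fit. Both genes overlapped between the groups. The other 4 receptors were Bmpr1a, Bmpr2, Acvr2a and Acvr2b, of which Acvr2b had the lowest level, a mean of 0.658 CPM per kb.

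As a group, the signal-transducing SMADs had the narrowest range between lines, a median of 0.47 log2 units over 5 genes. Smad4, the common partner of all branches, was at 148, 149 and 129 CPM in untreated lines A, B and C and at 127, 138 and 143 CPM with rDKK3. Its line means spanned 0.08 log2 units, the narrowest range of the 41 members, and its transcript was present in every sample. Smad2 spanned 0.16 log2 units and lay between 68.9 and 86.6 CPM in the 6 samples. Smad1 and Smad5, the BMP-responsive SMADs, lay between 58.3 and 93.3 CPM and between 71.9 and 122.8 CPM. Smad3 was the most abundant SMAD in every sample per kb, with 39.1% to 53.5% of the 7 SMADs in untreated cells and 37.7% to 54.5% with rDKK3. It was the one gene of these 5 whose level differed between lines in edgeR's test, at 328, 330 and 607 CPM in untreated A, B and C with an adjusted p of 0.0331. None of the 5 was called for rDKK3 in either fit, and their log2 fold changes lay between -0.06 and 0.22.

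**Figure D4:**
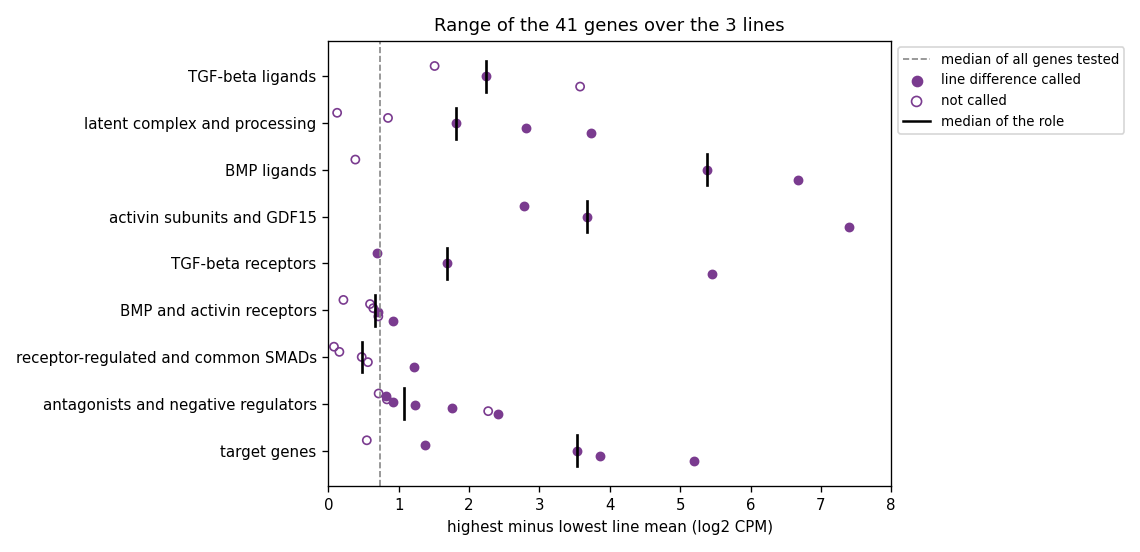
Highest minus lowest of the 3 line means (log2 CPM over both conditions) for each of the 41 genes by role. Filled points are genes called for a line difference by edgeR's test, black bars are medians of a role and the dashed line is the median of all genes tested, 0.74. The medians of the signal-transducing SMADs and of the BMP and activin receptors lie below that line, with Smad3 at 1.21 and Acvr1 at 0.92 above it, and Bmp2, Inhbb and Id4 reach 6.68, 7.40 and 5.19.

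In edgeR's test of the line terms, 24 of 41 members (58.5%) had an adjusted p under 0.05, beside 32.2% of all genes. Called members were all 3 of the activin subunits and Gdf15, all 3 TGF-beta receptors, 4 of 5 target genes, 2 of 3 BMP ligands, 5 of 8 antagonists and negative regulators, 3 of 5 genes of the latent complex and processing, 2 of 6 BMP and activin receptors, 1 of 3 TGF-beta ligands and 1 of 5 receptor-regulated and common SMADs. The 5 widest ranges were those of Inhbb, 7.40 log2 units, Bmp2, 6.68, Tgfbr3, 5.45, Bmp7, 5.38, and Id4, 5.19. For Inhbb the value depends on the prior count, since line C was near 0. Whether a line difference stems from the tumor, the animal or the culture cannot be told apart, because each line is 1 isolate.

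Among the antagonists and negative regulators, follistatin (Fst) and FSTL3 bind and neutralize activins, BAMBI is a decoy receptor, SMAD6 and SMAD7 are inhibitory SMADs, SMURF1 and SMURF2 are ubiquitin ligases that mark SMADs and receptors for degradation, and SKIL is a repressor of SMAD targets. Smad6 was at 38.8, 68.2 and 64.9 CPM in untreated lines A, B and C and at 35.4, 62.8 and 55.2 CPM with rDKK3. Its log2 fold change was -0.16 ± 0.11 (SE, n = 3), with an unadjusted p of 0.191 in edgeR's test and an adjusted p of 0.0211 in the 12-library fit. Smurf1 was at 98.3, 59.7 and 126.3 CPM untreated and at 90.0, 89.4 and 234 CPM with rDKK3, higher in lines B and C but not in line A. The log2 fold change of 0.45 ± 0.21 (SE, n = 3) had an unadjusted p of 0.0835 in edgeR's test and an adjusted p of 0.0401 in the 12-library fit. It was 0.75 without line A and 0.23 without line C. Fst, chosen after its values were seen, stood out in line C, at 57.3 and 55.9 CPM in the untreated libraries and 15.3 and 11.6 CPM with rDKK3. In lines A and B it lay between 5.39 and 16.7 CPM in all libraries. In line C the log2 difference was -2.11 for Fst, 0.30 for Fstl3 and 1.22 for the activin subunit Inhba. Smad7 was lower with rDKK3 in line A, at 104 and 57.0 CPM, and between 127.9 and 142.5 CPM in lines B and C. Bambi was at a mean level of 0.354 CPM per kb over the 6 samples and had 9 to 133 counts per sample.

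Among the target genes, ID proteins are inhibitors of basic helix-loop-helix transcription factors. Id2 (chr12:25143798-25147139) was at 237 and 218 CPM in the untreated libraries of line A and at 139 and 127 CPM with rDKK3. Line B had 518 and 474 CPM untreated and 415 and 398 CPM with rDKK3. Line C had 452 and 414 CPM untreated and 263 and 250 CPM with rDKK3. Every treated library lay below both untreated libraries of its line, and the groups overlapped between lines. The log2 fold change was -0.59 ± 0.15 (SE, n = 3 lines), with an unadjusted p of 0.00954, the smallest of the 41 members, an adjusted p of 0.60 in edgeR's test, and an adjusted p of 0.00139 in the 12-library fit.

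Id4 (chr13:48414704-48419502) was mainly a transcript of line C, at 51.2 and 45.9 CPM in the untreated libraries and 18.3 and 16.1 CPM with rDKK3. In line B it was at 5.25 and 5.92 CPM untreated and 4.33 and 3.75 CPM with rDKK3. Line A had 0.791 and 0.815 CPM untreated and 0.506 and 0.635 CPM with rDKK3, the latter from 6 counts in all. The gene was lower within every line, with a log2 fold change of -0.94 ± 0.28 (SE, n = 3 lines), an unadjusted p of 0.0184, an adjusted p of 0.60 in edgeR's test and an adjusted p of 0.00332 in the 12-library fit. Without line C the log2 fold change was -0.49 with an unadjusted p of 0.199.

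Id1 and Id3 did not follow that pattern in line A. Id1 was at 151, 228 and 158 CPM in untreated lines A, B and C and at 170, 180 and 122 CPM with rDKK3. Id3 was at 14.6, 212 and 121 CPM untreated and at 17.4, 163 and 97.1 CPM with rDKK3. Both were higher with rDKK3 in line A and lower in lines B and C, and neither had an unadjusted p under 0.05, with 0.273 and 0.343 in edgeR's test. Summed per kb, the Id family was at 157.8 CPM per kb in untreated line A, 388 in B and 289 in C, and at 143.5, 310.1 and 199.9 with rDKK3. Line A stood apart by a small share of Id3, 5.18% of the family against 30.5% and 23.4% in untreated B and C. Tgfbi, a matrix protein gene named for its induction by TGF-beta and chosen here after its values were seen, was at 0.100, 2.15 and 3.68 CPM in untreated lines A, B and C and at 0.682, 1.78 and 8.22 CPM with rDKK3. The line A values are from 3 and 7 counts, which is at or near the floor.

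**Figure D5:**
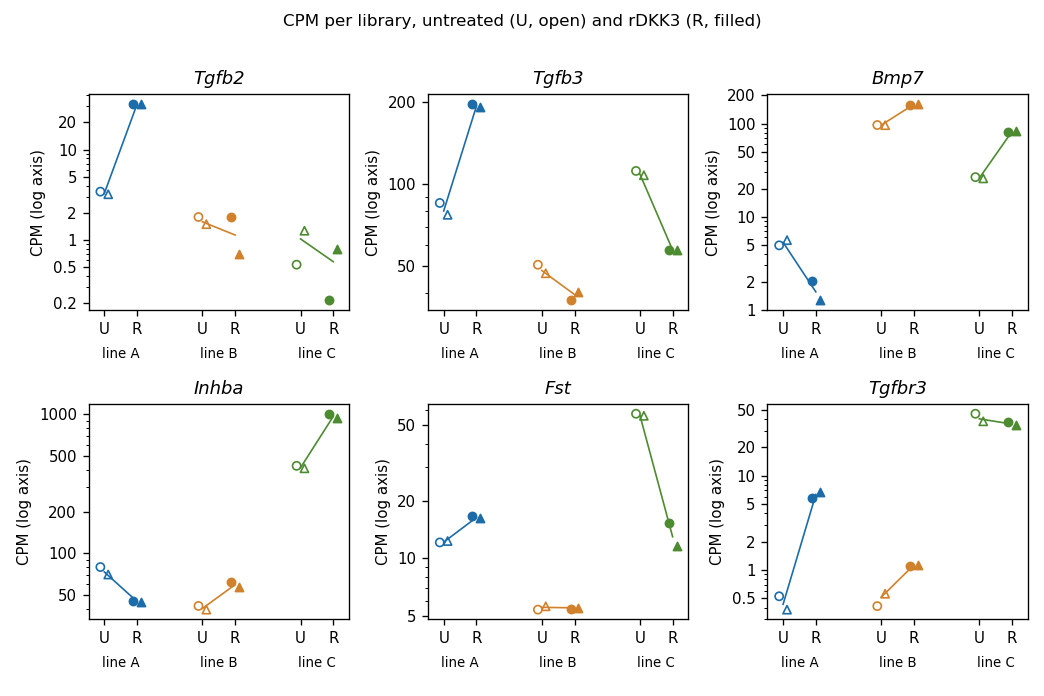
CPM on log axes in each library for 6 members whose difference with rDKK3 had opposite signs between lines or was large in 1 line, open symbols untreated (U) and filled symbols rDKK3 (R), circles the lower and triangles the higher library numbers. Tgfb2, Tgfb3 and Tgfbr3 are higher with rDKK3 in line A, Inhba and Bmp7 are higher in lines B and C and lower in line A, and Fst is lower in line C.

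Beyond the 41 members, 86 other genes of the superfamily were listed, of which 49 were expressed enough to be tested. In edgeR's summed fit 0 of the 49 were called and 3 had an unadjusted p under 0.05, a smaller share than the 8.29% of all genes. The 12-library fit called 5 higher, beside 6.93% of all genes, and 2 lower, beside 9.72%. Their median log2 fold change was 0.03. Grem1, which encodes the BMP antagonist gremlin 1, was higher in all 3 lines, at 0.367, 17.0 and 728 CPM in untreated A, B and C and at 0.877, 26.7 and 2064 CPM with rDKK3. The line A values rest on 11 counts untreated and 9 with rDKK3, and the log2 difference there was 1.66 in the lower and 0.23 in the higher library numbers. Its log2 fold change was 1.11 ± 0.22 (SE, n = 3), with an unadjusted p of 0.00348 and an adjusted p of 0.60 in edgeR's test, and it was called in 4 of 12 alternative fits, those with 12 libraries, with DESeq2 and without a filter on low counts. Atoh8, a BMP target gene, was lower in all 3 lines, at 25.8, 68.6 and 15.7 CPM untreated and at 9.07, 55.0 and 5.26 CPM with rDKK3, a log2 fold change of -1.10 ± 0.29 (SE, n = 3) with an unadjusted p of 0.0113 in edgeR's test. Itgb6, a subunit of an integrin that activates latent TGF-beta, was at 11.4 and 4.98 CPM in untreated lines A and B, at 2.44 and 2.81 CPM with rDKK3, and near 0 in line C, with a log2 fold change of -1.33 ± 0.47 (SE, n = 3) and an unadjusted p of 0.0351 in edgeR's test. Without line A it was -0.66. Of the 10 tested genes on the list of BMP targets, which includes 6 members, 9 had a negative log2 fold change and 1 a positive one, with a median of -0.21, beside 7752 negative values among 15214 genes and a median of -0.01. In edgeR's summed fit 0 of the 10 were called and 2 had an unadjusted p under 0.05, beside 8.29% of all genes. The 12-library fit called 1 higher and 3 lower. Only 5 of the 10 had 1 sign in all lines, and in line A 4 were higher and the median was -0.07. The 15 tested TGF-beta targets, which include the member Ltbp2 and Itgb6 from above, had 9 positive and 6 negative values and a median of 0.05. In edgeR's summed fit 0 were called, and Ltbp2 and Itgb6 alone had an unadjusted p under 0.05, beside 8.29% of all genes. The 12-library fit called 4 higher, Ltbp2 among them, beside 6.93% of all genes. It called 1 lower, Itgb6, beside 9.72%.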

How the data were processed

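RNA of 3 DDKC lines without and with rDKK3 was measured in 12 stranded libraries. According to the study's methods, 50-base read pairs were aligned to GRCm39 and counted by strand on exons of the GENCODE M32 annotation. The submitters' processing notes name STAR 2.7.9a, Picard 2.19.2, R 4.2.2 and DESeq2 1.38.0. The authors deposited raw counts per gene without normalization; 92 spike-in rows held 0 counts and were left out. No value column belonged to another library. One further allele shared by all lines is not reported here.

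Counts of the 2 libraries of a line and condition were summed and tested with edgeR 4.0.16 in R 4.3.3 (TMM, filterByExpr, line and treatment in the model, quasi-likelihood F test, Benjamini-Hochberg adjustment over 15214 genes, threshold 0.05, 12172 of them protein-coding). The same fit gave the line differences. CPM use TMM library sizes. Levels per kb use exon lengths of GENCODE M39. Log2 differences within a line use a prior count of 2. The floor is 3 counts, 0.0856 to 0.292 CPM per summed sample. Reads carry no molecular identifiers, so floors cover counting error only.

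Treated and untreated samples are paired by cell line, and their deviations from the group means correlated at 0.80, 0.87 and 0.79 within lines A, B and C and between -0.29 and -0.49 across lines. An exact permutation test of 3 pairs cannot give a two-sided p below 0.25, so none is given. The scripts were tested on simulated data.

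Values per sample are given for members with an unadjusted p under 0.05, or an adjusted p under 0.05 in the 12-library fit, or one of the 5 widest ranges over lines, or the same sign in 3 lines with a log2 difference of at least 0.5 in 2 of them. That named 16 members and left 25. Tgfb2, Tgfb3, Inhba, Fst and Tgfbi were added after their values were seen, and so, to complete their families, were Tgfb1, Tgfbr1, Smad3, Smad4, Smad7, Fstl3, Id1 and Id3. Members, lists, tests and this rule were chosen with earlier results of these data known. Other pathway genes are named at an unadjusted p under 0.05. Promoters of 29 of 41 members were found by symbol in RefSeq's GRCm38.p6 table, and the 5 shown were placed on GRCm39 by exact match. Alternatives covered 12 separate libraries with and without the library number series, no line term, each number series alone, DESeq2 1.42.0, other normalizations and filters, and leaving out each line.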

Additional observations from a re-analysis of the deposited data

Results flagged for a closer look

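For 3 of the 16 members named by rule, the treated libraries of 1 line were higher and those of another line lower than the untreated libraries, in both library number series. Inhbb also met this but is left out, because line C had 0 counts of it with rDKK3. For Tgfbr3 the log2 differences were 3.61, 1.01 and -0.18 in lines A, B and C, a spread of 3.79. For Bmp7 they were -1.71, 0.74 and 1.66, a spread of 3.37. For Smurf1 they were -0.13, 0.58 and 0.89, a spread of 1.02. The median spread over all genes tested was 0.57. Whether the response of these genes differs between lines was not tested by any fit that holds where the 2 libraries repeat 1 culture.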

How the results depend on the processing

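The number of genes called for rDKK3, 1 on summed counts, was 2534 with 12 separate libraries and the replicate block of line, 2885 with the library number series added, 96 with DESeq2, 90 without a filter on low counts, 0 with at least 10 counts in every sample, 0 without the replicate block, and 0 when any line was left out (lowest 0, highest 0). The number of members called, 0, was 12 in both 12-library fits and 0 in the other alternatives run. The median log2 fold change of the members, 0.05, was 0.0847 without the block, 0.0022 without a filter, and between -0.0038 and 0.095 when a line was left out. Genes called for line differences numbered 4899, and 11402 with 12 separate libraries. The sign of a log2 fold change reversed when a line was left out for Bmp7 (-0.069 to 1.20, negative without line C), Inhba (-0.064 to 0.91, negative without C), Fst (-1.14 to 0.22, positive without C), Tgfb2 (-0.63 to 1.76, negative without A) and Tgfb3 (-0.60 to 0.50, negative without A), and for Tgfb3 also with the lower library numbers only (-0.044) and without a filter (-0.032). Ltbp2, Ltbp4, Gdf15, Id2 and Id4 kept their direction in all alternatives that tested them, with log2 fold changes of 0.68 to 2.13, -0.95 to -0.49, 0.47 to 1.59, -0.74 to -0.49 and -1.33 to -0.49, and were called in the 12-library fits only. The log2 fold change of Ltbp1 was -0.15 and that of Acvr1b 0.20 without line A, and that of Tgfbr2 was -0.14 without line C. With 3 lines, a difference shared by the lines had to exceed their spread to be called. Tgfbi in line A (3 and 7 counts), Tgfb2 in treated line C (7 counts) and Id4 in treated line A (6 counts) lie near the floor.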
